A study of Drosophila melanogaster with 18 samples.

Results

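The genes described here are the 2 subunits of the *Drosophila* ecdysone receptor, *EcR* and *usp*, together with 8 genes that respond to the hormone: *br*, *Eip74EF*, *Eip75B*, *Eip78C*, *Eip93F*, *Eip71CD*, *ftz-f1* and *Hr39*. They were chosen by name, as a reading of developmental stage, and all 10 were found among the 17575 genes of each deposited expression table, where *Eip71CD* is listed under its other symbol, *MsrA*. The data come from 18 libraries of polyA RNA from the larval fat body, in 6 groups of 3. RNA-seq compared *4EHP* RNAi (*dcg-Gal4/uas-4EHP* RNAi) with control (*dcg-Gal4/+*), and *NELF-E* RNAi (*dcg-Gal4/uas-NELF-E* RNAi) with *lacZ* RNAi (*dcg-Gal4/uas-lacZ* RNAi). In TRIBE, where an RNA-binding protein is fused to the editing domain of ADAR so that adenosines near its binding sites are read as G, 4EHP-ADAR (*dcg-Gal4/uas-4EHP-adar*) was compared with a cap-binding mutant of the same fusion (*dcg-Gal4/uas-4EHPmutant-adar*). The study asked which transcripts depend on 4EHP, a protein that binds the mRNA cap, and on NELF-E, a subunit of the complex that holds RNA polymerase II near promoters. Every group carried *dcg-Gal4*, which drives UAS transgenes in the fat body, so no group was free of the driver. The labels name larvae without an age, the study worked on the third instar, and its methods state that males were used unless noted and that an RNA-seq replicate was a pool of fat bodies from several larvae. Those methods also state that *NELF-E* RNAi crosses were kept at a lower temperature than other crosses. Unless the *lacZ* RNAi larvae were reared at that temperature too, rearing temperature and knockdown cannot be told apart in that comparison. The study also reports that knockdown of either gene in the fat body delayed development. Unless the larvae were matched for stage, developmental stage and knockdown cannot be told apart in either RNA-seq comparison.

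Ecdysone is the steroid hormone that triggers moulting and metamorphosis in insects. It binds a heterodimer of EcR and Usp, and the bound receptor switches on a small set of early genes, most of which encode transcription factors that in turn regulate many later genes. In the larval fat body, rising ecdysone at the end of the third instar accompanies the end of feeding and, later, the remodelling of the tissue, so the levels of these transcripts change steeply with developmental time.

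The RNA-seq libraries held from 59919644 to 173605861 reads on genes. Values are CPM, the reads of a gene scaled to the same total in every library, and "scaled CPM" is CPM divided by a median-of-ratios factor that sets the typical gene equal across the 6 libraries of a table. Control replicate 3 stood apart, with a factor of 0.450 and 7853 transcripts above 1 CPM against 10370 to 10719 in the other libraries of its table. The factors of *lacZ* RNAi replicates 2 and 3 were 0.495 and 0.722, and those of the other 9 libraries were between 0.984 and 1.56. The targeted transcripts did not separate the groups: *eIF4EHP* was at 26.6, 21.3 and 5.55 CPM in controls and at 21.4, 14.8 and 18.1 CPM in the libraries labelled *4EHP* RNAi, and *Nelf-E* was at 38.6, 12.8 and 20.7 CPM in *lacZ* RNAi and at 33.6, 35.0 and 32.3 CPM in the libraries labelled *NELF-E* RNAi. Each direction below therefore rests on the labels. All 8 fat body markers were detected, with summed levels of 242532 to 370504 CPM in controls, 146130 to 227232 CPM in *4EHP* RNAi, 255051 to 362546 CPM in *lacZ* RNAi and 183967 to 274018 CPM in *NELF-E* RNAi. The summed testis markers, 9 genes, were at 30.5 CPM in control replicate 3 and between 1487 and 2367 CPM in the other libraries of that table, while they were at 2135, 295 and 658 CPM in *lacZ* RNAi and 1440 to 2251 CPM in *NELF-E* RNAi. In CPM as deposited, the summed markers of 3 other tissues were higher in *4EHP* RNAi than in controls without overlap. The 8 muscle markers together were at 104 to 229 against 11.5 to 70.7 CPM. The 6 gut markers were at 24.6 to 342 against 1.15 to 10.3 CPM. The 5 haemocyte markers were at 65.7 to 82.6 against 27.9 to 58.2 CPM. As deposited, the median log2 fold change over all transcripts was 0.68, and the groups were apart for 28.6% of them. After scaling, 6 of 7 tested muscle markers, 1 of 3 gut markers and 0 of 4 haemocyte markers lay above the controls without overlap. This held for 7.78% of all transcripts. The part of these other tissues in the results was not tested, and in bulk samples fewer cells of a type and less RNA per cell cannot be told apart.

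In *NELF-E* RNAi, *Eip71CD* fell, and it was the only 1 of the 8 members with enough reads to be tested that passed the threshold (adjusted p of 0.05 over all transcripts tested with limma). Of all 8371 transcripts tested, 4.44% passed it, 167 higher and 205 lower. In scaled CPM, the groups did not overlap for *Eip71CD* and *Eip78C*, both lower in *NELF-E* RNAi, which is 2 of 8 members against 25.8% of all transcripts. The receptor subunits and *br*, *Eip74EF*, *Eip75B* and *Hr39* overlapped between the groups. The median log2 fold change of the 8 members was -0.43, with 7 below 0, beside -0.05 over all transcripts tested. With CPM as deposited, the members' median was 0.31, with 3 below 0, beside 0.65 over all transcripts.

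In *4EHP* RNAi, all 8 tested members had lower mean log2 levels than in controls, *Eip71CD* by the most, but no member passed the threshold, nor did any of the 8584 transcripts tested (0% called by limma). At an unadjusted p of 0.05, 3 members (*Eip71CD*, *Eip78C* and *Eip75B*) and 848 transcripts passed. On the reads recovered from the CPM values, edgeR called 0 members and DESeq2 called 1, *Eip71CD*. Over all transcripts, edgeR called 0 and DESeq2 called 202 higher and 177 lower of 8480. The groups did not overlap in scaled CPM for 4 of 8 members (*Eip74EF*, *Eip75B*, *Eip78C* and *Eip71CD*), beside 18.8% of all transcripts. In CPM as deposited this held for 2 of 8, *Eip78C* and *Eip71CD*, beside 28.6%. The members' median log2 fold change was -1.15, against 0.15 over all transcripts, and it was -0.56 against 0.68 with CPM as deposited. Without control replicate 3, the members' median was -0.79 with 7 of 8 below 0, against -0.01 over all transcripts.

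**Figure D1:**
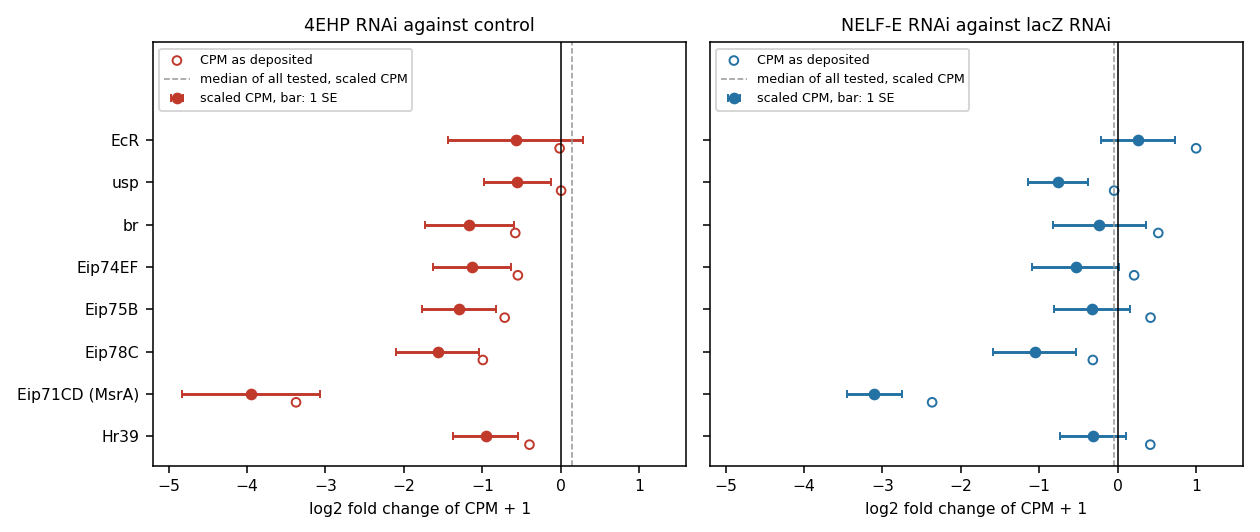
Log2 fold change of each tested gene in *4EHP* RNAi against control and in *NELF-E* RNAi against *lacZ* RNAi, on the log2(scaled CPM + 1) scale. Filled points are the main values with bars of 1 standard error, open points use CPM as deposited, and the dashed line is the median of all transcripts tested. *Eip71CD* lies far below the other members in both comparisons, at -3.95 and -3.11.

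*Eip71CD* encodes a methionine sulfoxide reductase, an enzyme that repairs oxidized methionine, and was first described as an ecdysone-induced protein gene. It lies at 3L:15511052-15513202 on the plus strand. Its level was 284, 129 and 607 CPM in control replicates 1 to 3 and 30.6, 18.8 and 31.2 CPM in the *4EHP* RNAi replicates. In the other table it was at 267, 140 and 258 CPM in *lacZ* RNAi and at 38.7, 46.2 and 37.1 CPM in *NELF-E* RNAi. Every RNAi library against either factor was below every library of its own reference group, with or without scaling. After scaling, the means were 571 ± 676 against 22.1 ± 6.49 scaled CPM for control and *4EHP* RNAi (SD, n = 3), where control replicate 3 alone was at 1349 and the other controls at 231 and 132. The log2 fold change was -3.95 (SE 0.88, 95% interval -6.09 to -1.81), or 15.5-fold lower, with an adjusted p of 0.198 from limma with Benjamini-Hochberg adjustment.

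Control replicate 3 had much weight in that value. Without it, the log2 fold change of *Eip71CD* in *4EHP* RNAi was -2.94 and the adjusted p from limma was 0.00801, whereas it passed the threshold in 3 of 15 alternatives, with adjusted p values between 2.48e-05 and 0.757. For *NELF-E* RNAi the scaled means were 283 ± 74.6 and 32.1 ± 9.61 CPM (SD, n = 3). That is 8.61-fold lower, a log2 fold change of -3.11 (SE 0.35, 95% interval -3.91 to -2.30) with an adjusted p of 0.00343 from limma. This call held in 15 of 15 alternatives, with adjusted p values from 1.52e-13 to 0.0290. An exact two-sided permutation test gave p = 0.1 in each comparison, the smallest that 3 against 3 libraries allow.

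Several fat body markers were lower beside *Eip71CD*, although none of the 8 passed the threshold in either comparison. After scaling, *Fbp1*, *Fbp2*, *Lsp1alpha* and *ppl* lay below the controls without overlap in *4EHP* RNAi, with log2 fold changes of -3.48, -3.79, -3.28 and -1.10 and adjusted p values of 0.158, 0.157, 0.221 and 0.486 from limma. In *NELF-E* RNAi this held for *Fbp1*, *Fbp2* and *ppl*, at -2.94, -3.91 and -1.61 with adjusted p values of 0.0837, 0.136 and 0.125. *Fbp1*, itself a gene switched on by ecdysone in the fat body, and *Fbp2* therefore had differences close in size to those of *Eip71CD*. The remaining fat body markers overlapped between the groups after scaling in both comparisons. The median log2 fold change of all 8 markers was -0.95 in *4EHP* RNAi and -1.51 in *NELF-E* RNAi. Over all transcripts it was 0.15 and -0.05. In *4EHP* RNAi, *Lsp1beta*, *Lsp1gamma*, *apolpp* and *Lsp2* had log2 fold changes of -0.66, -0.80, -0.68 and 0.11. As deposited, every *4EHP* RNAi library was above every control for *Lsp2*. The part of the fat body markers in the lower level of *Eip71CD* was not tested.

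The lower level of *Eip71CD* also showed inside each library, where no scaling factor enters. These ratios between members were added after the values had been seen. Those with *Eip71CD* all reuse the same values of that gene, so they are not separate observations. The share of ratios apart over all transcripts was not computed. The ratio of *Eip71CD* to *Eip75B* CPM was 1.98, 1.71 and 7.17 in controls and 0.373, 0.421 and 0.566 in *4EHP* RNAi. It was 2.83, 1.19 and 4.84 in *lacZ* RNAi and 0.340, 0.567 and 0.241 in *NELF-E* RNAi. The groups were apart for the ratio of *Eip71CD* to each of the 7 other tested members in *4EHP* RNAi, and to 6 of 7 in *NELF-E* RNAi, where only the ratio to *Eip78C* overlapped. Mean log2 differences of these ratios ran from -3.43 to -2.41 and from -3.42 to -2.07. Among the 21 ratios between the other 7 members, 4 were apart in *4EHP* RNAi and 6 in *NELF-E* RNAi.

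**Figure D2:**
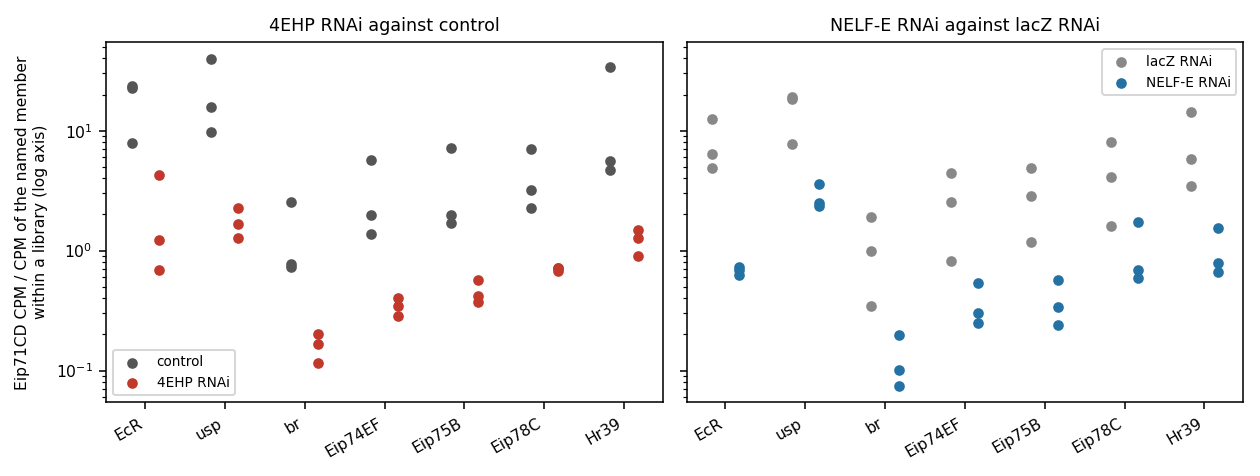
CPM of *Eip71CD* divided by the CPM of each other tested member in the same library, on a log axis, by group. Each point is 1 library; the ratio to *Eip75B* lies between 1.19 and 7.17 in the control and *lacZ* RNAi libraries and between 0.241 and 0.567 in the RNAi libraries against *4EHP* and *NELF-E*.

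The receptor itself did not pass the threshold in either comparison. *EcR* (2R:6087873-6169087, minus strand), the hormone-binding subunit, was at 12.5, 16.4 and 25.8 CPM in controls and at 44.6, 15.2 and 7.27 CPM in *4EHP* RNAi, so that *4EHP* RNAi held both the highest and the lowest library. In scaled CPM the controls read 10.2, 16.6 and 57.5 and the *4EHP* RNAi libraries 38.6, 11.8 and 5.86, with a log2 fold change of -0.58 (SE 0.86, 95% interval -2.66 to 1.51, adjusted p = 0.751 from limma). Without control replicate 3, it was 0.14. In *lacZ* RNAi *EcR* was at 21.4, 28.5 and 40.1 CPM, and in *NELF-E* RNAi at 55.7, 62.9 and 58.9 CPM, with no overlap. Of the 8 members, *EcR* and *Eip71CD* had groups apart in this table as deposited, beside 26.9% of all transcripts.

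Scaling removed that separation of *EcR*. The scaled values were 16.7, 57.6 and 55.5 CPM in *lacZ* RNAi and 42.9, 58.0 and 37.8 CPM in *NELF-E* RNAi, and the groups overlapped. The log2 fold change in *NELF-E* RNAi was 0.26 (SE 0.47, 95% interval -0.83 to 1.35, adjusted p = 0.741 from limma) after scaling and 1.00 (adjusted p = 0.131) with CPM as deposited. Within a library, the ratio of *EcR* to *usp* was 1.47, 1.58 and 2.96 in *lacZ* RNAi and 3.58, 4.85 and 3.71 in *NELF-E* RNAi, a mean log2 difference of 1.07 with the groups apart, while in the other table it was 0.697, 1.22 and 1.69 in controls and 2.45, 1.03 and 0.529 in *4EHP* RNAi, which overlapped.

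*usp* (X:2038798-2042311, minus strand) encodes the partner of EcR, the fly's RXR. In CPM as deposited it was the steadiest member, between 13.0 and 18.2 CPM in all 12 libraries. Its level was 18.0, 13.4 and 15.3 CPM in controls, 18.2, 14.8 and 13.7 CPM in *4EHP* RNAi, 14.5, 18.0 and 13.5 CPM in *lacZ* RNAi and 15.5, 13.0 and 15.9 CPM in *NELF-E* RNAi. Scaling raised control replicate 3 to 34.0 and *lacZ* RNAi replicate 2 to 36.4 scaled CPM. The log2 fold change was then -0.55 (SE 0.43, adjusted p = 0.695 from limma) in *4EHP* RNAi and -0.76 (SE 0.38, adjusted p = 0.320) in *NELF-E* RNAi, against 0.0047 and -0.05 with CPM as deposited. Exons of *usp* overlap those of *Actn* on the same strand and *CG4313* on the other over 8.7% of their bases, and the strand setting of the counting is not given in the sources used here, so these values may hold reads of those genes.

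**Figure D3:**
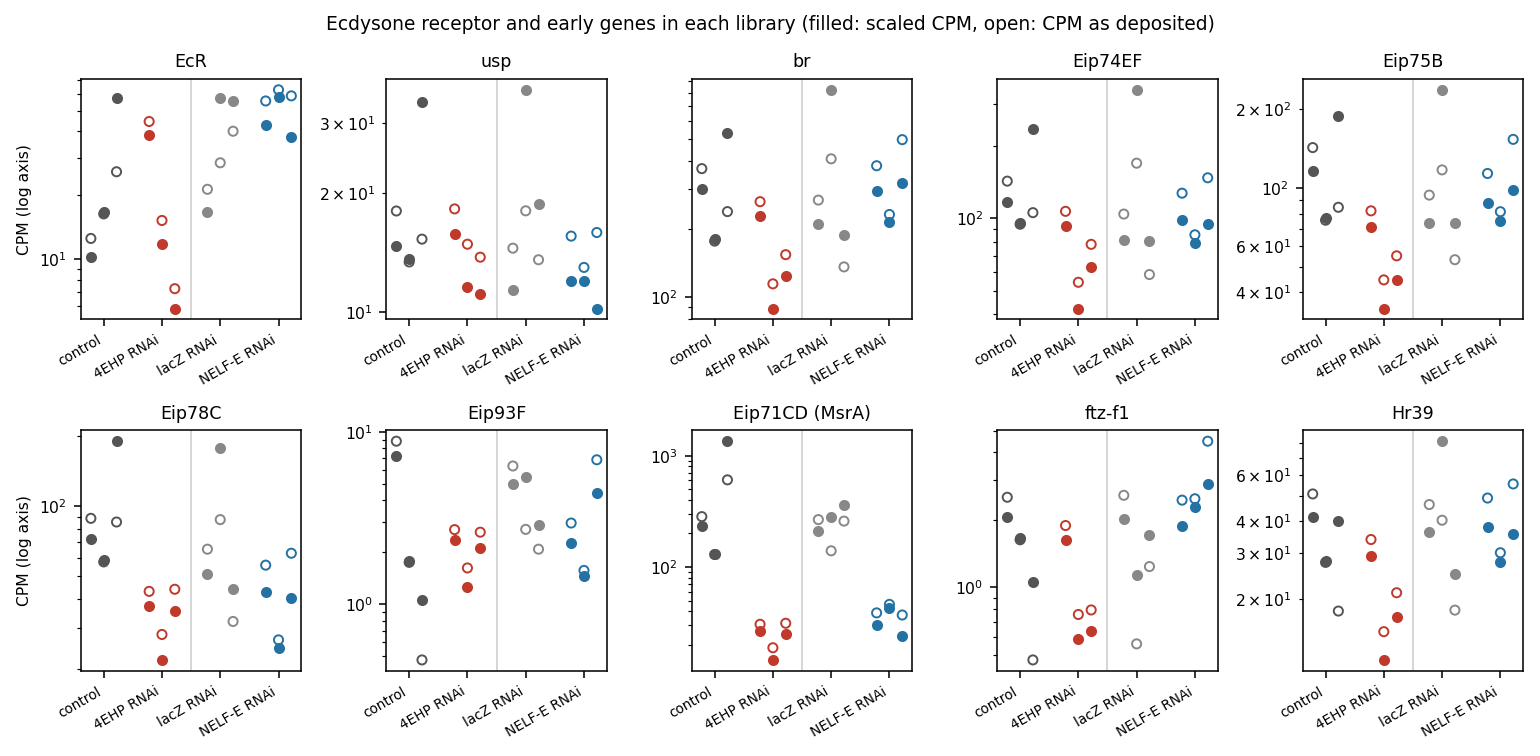
Level of each of the 10 genes in every RNA-seq library, on log axes in CPM, by group. Filled points are scaled CPM and open points CPM as deposited; the *Eip71CD* points of *4EHP* RNAi and *NELF-E* RNAi, 18.8 to 46.2 CPM as deposited, sit below all control and *lacZ* RNAi points, 129 to 607 CPM.

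The early regulators followed each other from library to library. *br* (X:1575132-1664869, plus strand), a zinc-finger factor needed for the change from larva to pupa, was at 370, 177 and 239 CPM in controls and at 264, 114 and 154 CPM in *4EHP* RNAi. *Eip74EF* (3L:17558672-17619325, minus strand), an ETS-domain factor, was at 143, 94.6 and 106 CPM in controls and at 107, 54.2 and 78.0 CPM in *4EHP* RNAi. *Eip75B* (3L:17950953-18064696, minus strand), a heme-binding nuclear receptor, was at 143, 75.5 and 84.6 CPM in controls and at 82.0, 44.7 and 55.2 CPM in *4EHP* RNAi. For each of these 3 genes replicate 1 was highest and replicate 2 lowest in both groups, and the groups overlapped.

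After scaling, the *4EHP* RNAi libraries lay below the controls for *Eip74EF* (42.1 to 92.6 against 96.2 to 235 scaled CPM) and *Eip75B* (34.7 to 70.9 against 76.8 to 188), but not for *br* (88.8 to 228 against 179 to 531). Log2 fold changes were -1.17 (SE 0.57) for *br*, -1.13 (SE 0.50) for *Eip74EF* and -1.30 (SE 0.48, 95% interval -2.45 to -0.14) for *Eip75B*. None passed the threshold, with adjusted p values of 0.591, 0.551 and 0.441 from limma. The lower values held their sign in every alternative run.

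In the table of *NELF-E* RNAi the same genes overlapped. *br* was at 268, 409 and 136 CPM in *lacZ* RNAi and at 381, 232 and 497 CPM in *NELF-E* RNAi. *Eip74EF* was at 104, 170 and 58.4 against 127, 85.5 and 148 CPM, and *Eip75B* at 94.2, 118 and 53.4 against 114, 81.4 and 154 CPM. In each case *lacZ* RNAi replicate 2 was the highest of its group and *lacZ* RNAi replicate 3 the lowest library of the table. The log2 fold changes of *br*, *Eip74EF* and *Eip75B* were -0.23, -0.54 and -0.33 after scaling (SE 0.59, 0.56 and 0.48; adjusted p = 0.814, 0.563 and 0.678 from limma). Their sign turned with the scaling, to 0.52, 0.21 and 0.42 with CPM as deposited, and also without *lacZ* RNAi replicate 2, where they were 0.48, 0.18 and 0.26. That library and *lacZ* RNAi replicate 3 had the lowest summed testis markers of the table, and the part of this in the turn of sign was not tested.

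*Eip78C* and *Hr39* encode nuclear receptors of the ecdysone hierarchy. *Eip78C* (3L:21226609-21266503, plus strand) was at 88.6, 57.6 and 85.5 CPM in controls and at 43.0, 28.1 and 44.0 CPM in *4EHP* RNAi, with no overlap before or after scaling. Its log2 fold change was -1.57 (SE 0.53, 95% interval -2.87 to -0.27, unadjusted p = 0.0248 and adjusted p = 0.398 from limma). In the other table it was at 65.3, 87.5 and 32.0 CPM in *lacZ* RNAi and at 55.8, 26.6 and 62.8 CPM in *NELF-E* RNAi. There the groups overlapped as deposited and were just apart after scaling (44.2 to 177 against 24.6 to 43.0 scaled CPM), with a log2 fold change of -1.06 (SE 0.53, adjusted p = 0.315). An exact two-sided permutation test of the scaled means gave p = 0.1 in both comparisons, its smallest possible value.

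*Hr39* (2L:21237250-21259675, plus strand) was at 50.9, 27.6 and 17.9 CPM in controls and 33.9, 14.9 and 21.1 CPM in *4EHP* RNAi, and at 46.3, 40.3 and 18.1 CPM in *lacZ* RNAi and 49.0, 30.1 and 55.6 CPM in *NELF-E* RNAi. Groups overlapped in both tables. The log2 fold change was -0.96 (SE 0.42, adjusted p = 0.545 from limma) in *4EHP* RNAi and -0.32 (SE 0.42, adjusted p = 0.648) in *NELF-E* RNAi, and the latter was 0.42 with CPM as deposited.

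The remaining members were nearly silent. *ftz-f1* (3L:18750607-18801309, minus strand), a nuclear receptor expressed when ecdysone has fallen after a pulse, was at 2.52, 1.63 and 0.474 CPM in controls, 1.89, 0.756 and 0.792 CPM in *4EHP* RNAi, 2.57, 0.559 and 1.24 CPM in *lacZ* RNAi and 2.45, 2.48 and 4.49 CPM in *NELF-E* RNAi. *Eip93F* (3R:21949114-22014539, plus strand), a regulator of adult development and of cell death in larval tissues, was at 8.82, 1.75 and 0.474 CPM in controls, 2.70, 1.62 and 2.61 CPM in *4EHP* RNAi, 6.33, 2.71 and 2.08 CPM in *lacZ* RNAi and 2.95, 1.57 and 6.88 CPM in *NELF-E* RNAi. Groups overlapped for both genes in both tables. Their means were under the minimum of 5 CPM set for the main test, and without that filter their adjusted p values from limma were between 0.422 and 0.827. The exons of *ftz-f1* share 29.4% of their bases with *lncRNA:CR45939* on the same strand, so its low values are uncertain.

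Per kilobase of exon, which lets levels of different genes be compared, *Eip71CD* stood far above the rest in the reference groups, at a mean of 421 scaled CPM per kb in controls and 209 in *lacZ* RNAi. Next came *Eip78C*, at 18.2, in controls, and *br*, at 20.2, in *lacZ* RNAi. From there down to *EcR* (2.83 and 4.36 scaled CPM per kb) each member overlapped its neighbour in that order, and *Eip93F* and *ftz-f1* lay apart below, at 0.263 and 0.185 in controls and 0.350 and 0.189 in *lacZ* RNAi. In *4EHP* RNAi *Eip71CD* was still the first in the order, at 16.3, but overlapped *br*, at 7.28. In *NELF-E* RNAi *Eip71CD* (23.7), *br* (13.6), *Eip74EF* (9.72) and *Hr39* (6.78) followed each other without overlap, and *EcR* (4.66) stood above *usp* (3.74), with overlap, in contrast to the order of their means in the other 3 groups. The exonic lengths count all annotated exons, so genes with many long isoforms, such as *br*, read low on this scale.

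No member was shown to respond differently to the 2 knockdowns. The difference of the log2 fold changes, *4EHP* RNAi minus *NELF-E* RNAi, was tested with limma over the 12 libraries, each table scaled within itself, and 0 of 8 members and 0 of 8162 transcripts (0% called) passed the threshold. At an unadjusted p of 0.05, 0 members and 159 transcripts passed. The difference for *Eip71CD* was -0.84 (95% interval -3.06 to 1.37), for *EcR* -0.84 (-3.21 to 1.53), for *br* -0.93 (-2.87 to 1.00) and for *Eip75B* -0.97 (-2.54 to 0.61). Those of *Eip74EF*, *Eip78C*, *Hr39* and *usp* were between -0.64 and 0.21. These intervals are wide and reach past a difference of 2 log2 units for every tested member but *usp*. The 2 tables were normalized separately and have separate controls.

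Across the 12 RNA-seq libraries, each table centred on its own mean, *br*, *Eip74EF* and *Eip75B* followed each other closely in log2(scaled CPM + 1), with Pearson r of 0.984 between *br* and *Eip75B*, 0.974 between *br* and *Eip74EF* and 0.976 between *Eip74EF* and *Eip75B*. *Hr39* went with them (r of 0.941 with *br*). *EcR* did so least, with r of 0.356 to 0.655 with the other members, and -0.05 to 0.45 without control replicate 3. All genes of a library are divided by the same scaling factor, so these values are a description only. Over the same 12 libraries, the transcripts most like *br* were *tai* (r of 0.987), which encodes the receptor coactivator Taiman, *mnb* (0.981) and *rudhira* (0.978). Those most like *Eip75B* were *tai* (0.981), *fs(1)h* (0.981) and *Doa* (0.978), and those most like *Eip74EF* were *tweek* (0.990), *alt* (0.989) and *CASK* (0.984). *EcR* was most like *bur* (0.967), *CG17698* (0.948) and *Art4* (0.937), and *usp* most like *CG4558* (0.990), *wnd* (0.989) and *CG11686* (0.987).

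Other genes of the hormone pathway were read as 6 lists. In *NELF-E* RNAi, of the 27 list genes tested, 3 fell and 0 rose, beside 4.44% called among all transcripts: *sro* of 3 tested genes of steroid synthesis and breakdown, and *Jheh1* and *Jheh2* of 5 tested juvenile hormone genes. None was called among 6 genes of hormone import and receptor cofactors, 8 other ecdysone-inducible regulators, 2 later inducible genes and 3 cell death genes. Of these, edgeR also called 0 and DESeq2 called 3 (*Oatp74D*, *DOR* and *ImpE2*, all lower). DESeq2 called a further gene, *Eip63F-1*, that was under the filter of the main test. Over all 9362 transcripts in its test, DESeq2 called 315 higher and 907 lower. The median log2 fold changes of these lists were -1.78 for steroid synthesis and breakdown, -0.54 for juvenile hormone, -0.32 for import and cofactors, 0.11 for other regulators, -0.85 for later genes and -0.60 for cell death, beside -0.05 over all transcripts. In the steroid list DESeq2 also called *shd*, lower, which limma did not call. It was at 61.1, 80.4 and 91.4 CPM in *lacZ* RNAi and 34.1, 47.4 and 30.4 CPM in *NELF-E* RNAi. The groups of *shd* were apart with and without scaling. With CPM as deposited, limma called 3 list genes higher (*Dronc*, *Eip55E* and *vri*) and 3 lower (*sro*, *Jheh1* and *Jheh2*). Over all 8371 transcripts, 337 were then called higher and 173 lower. Without *lacZ* RNAi replicate 2, limma called 2 list genes higher (*vri* and *Sox14*) and 2 lower (*sro* and *Jheh2*). Over all 8524 transcripts, 176 were then called higher and 147 lower. In *4EHP* RNAi none of the 27 list genes tested passed the threshold in limma. At an unadjusted p of 0.05 in limma, 10 passed, 8 lower and 2 higher. EdgeR called 0 and DESeq2 called 4, all lower (*Hr4*, *ImpE2*, *Jheh2* and *ImpE3*, the last under the filter of the main test). Over all 8480 transcripts in its test, DESeq2 called 202 higher and 177 lower. Without control replicate 3, limma called 2 list genes higher (*Dronc* and *Hr78*) and 2 lower (*ImpE2* and *Jheh2*). Over all 8723 transcripts, 458 were then called higher and 119 lower. In the main test of *4EHP* RNAi the medians were -1.22, -1.17, -0.97, -0.35, 0.16 and -0.19 in the same order of lists, beside 0.15.

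**Figure D4:**
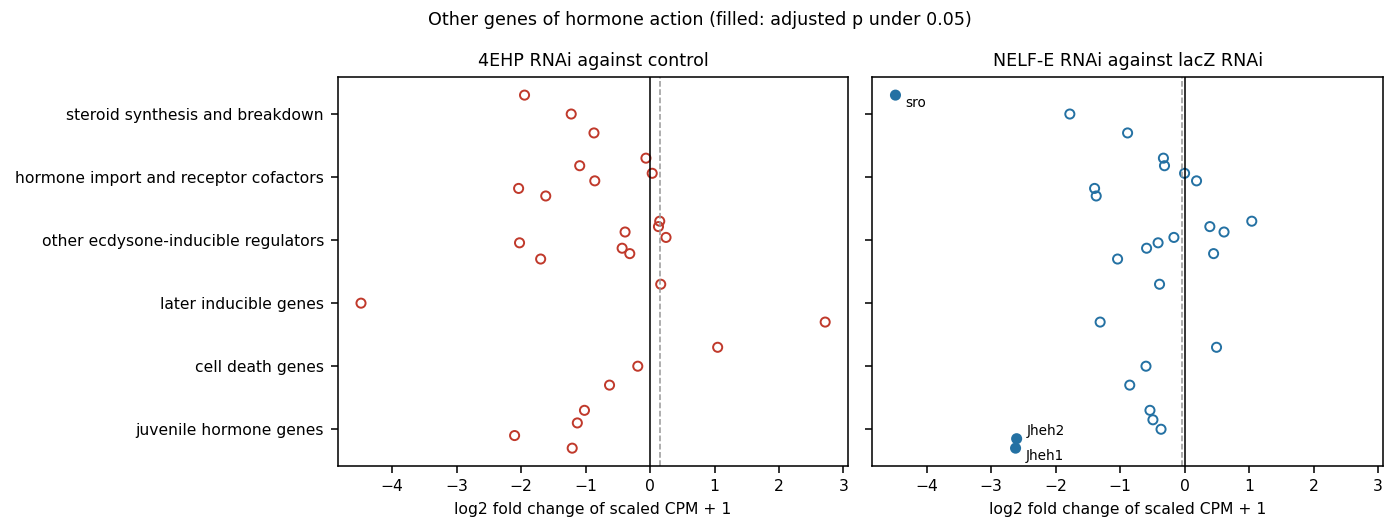
Log2 fold change, on the log2(scaled CPM + 1) scale, of every tested gene of the 6 pathway lists in the RNAi comparisons. The dashed line is the median of all transcripts tested, and filled points have an adjusted p under 0.05 in limma; these are *sro*, *Jheh1* and *Jheh2* in *NELF-E* RNAi, at -4.49, -2.62 and -2.61.

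*sro* encodes Shroud, a short-chain dehydrogenase of the ecdysone synthesis pathway known mainly from the prothoracic gland. Its scaled level was 44.7, 194 and 97.3 CPM in *lacZ* RNAi and 4.33, 5.71 and 1.18 CPM in *NELF-E* RNAi, so all libraries of the knockdown lay far below the reference. The log2 fold change was -4.49 (SE 0.58, adjusted p = 0.00608 from limma), and the call held in 15 of 15 alternatives. *Jheh1* and *Jheh2* encode epoxide hydrolases that break down juvenile hormone, the hormone that opposes metamorphosis. *Jheh1* was at 23.5, 72.2 and 73.6 scaled CPM in *lacZ* RNAi and 6.02, 14.3 and 4.32 in *NELF-E* RNAi (log2 fold change -2.62, SE 0.53, adjusted p = 0.0319). *Jheh2* was at 42.1, 145 and 103 against 12.4, 16.7 and 11.3 scaled CPM (log2 fold change -2.61, SE 0.44, adjusted p = 0.0170). Neither overlapped, and their calls held in 10 and 11 of 15 alternatives. In *4EHP* RNAi the log2 fold changes of *sro*, *Jheh1* and *Jheh2* were -1.95, -1.21 and -2.10, with adjusted p values of 0.432, 0.695 and 0.374 from limma.

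Of the genes that did not pass in limma, *ImpE2*, *Oatp74D*, *Hr4*, *Eig71Ea* and *Dronc* are given because of their values, which had been seen. *ImpE2*, an ecdysone-inducible gene first found in imaginal discs, was at 106, 65.8 and 119 CPM in controls and at 2.62, 2.96 and 15.0 CPM in *4EHP* RNAi, and its log2 fold change of -4.48 (SE 0.77, adjusted p = 0.128 from limma) was larger than that of *Eip71CD*. In the other table it was at 5.57, 24.5 and 33.9 CPM in *lacZ* RNAi and 14.0, 5.12 and 18.0 CPM in *NELF-E* RNAi, which overlapped. *Oatp74D*, the importer that carries ecdysone into cells, was at 46.6, 42.4 and 41.5 CPM in controls and 28.8, 12.5 and 9.08 CPM in *4EHP* RNAi. It was at 40.9, 62.4 and 42.6 CPM in *lacZ* RNAi and 28.7, 33.3 and 27.6 CPM in *NELF-E* RNAi, so the groups were apart in both tables, with adjusted p values of 0.288 and 0.164 from limma. *Hr4*, a nuclear receptor of the early hierarchy, was at 110, 50.1 and 45.9 CPM in controls against 28.2, 10.9 and 36.0 CPM in *4EHP* RNAi (log2 fold change -2.03, adjusted p = 0.279 from limma). In the other table it was at 45.0, 66.7 and 12.1 CPM in *lacZ* RNAi and 64.2, 11.0 and 100.2 CPM in *NELF-E* RNAi, which overlapped (log2 fold change -0.41, adjusted p = 0.772).

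The 2 list genes with higher values in *4EHP* RNAi at an unadjusted p of 0.05 were *Eig71Ea* and *Dronc*. *Eig71Ea*, of the late gene cluster at 71E, was at 0.346, 0 and 0.084 CPM in controls and at 7.31, 24.4 and 2.42 CPM in *4EHP* RNAi (log2 fold change 2.72, SE 0.74, adjusted p = 0.279 from limma). *Eig71Ea* averaged 5.76 CPM over both groups, and only the *4EHP* RNAi libraries brought it past the minimum of 5 CPM. Its fold change and p-value are therefore a description only. In the other table *Eig71Ea* was at 0.138 CPM or less in every library, and the groups overlapped. Its neighbours *Eig71Ec* and *Eig71Ed* were also above the controls in *4EHP* RNAi, but under the minimum of the main test. *Eig71Eb*, also under that minimum, overlapped, at 1.68, 0.621 and 0 CPM in controls and 4.64, 11.5 and 1.30 CPM in *4EHP* RNAi. *Dronc*, an initiator caspase, was at 23.6, 20.2 and 15.8 CPM in controls and at 51.0, 77.0 and 61.5 CPM in *4EHP* RNAi (log2 fold change 1.05, SE 0.36, adjusted p = 0.400). It was at 18.2, 12.3 and 12.4 CPM in *lacZ* RNAi and 33.8, 33.1 and 34.8 CPM in *NELF-E* RNAi, apart as deposited and overlapping after scaling (log2 fold change 0.49, adjusted p = 0.353).

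In the TRIBE table the columns are named RNA and KO with a number. The sample descriptions do not spell these names, and they were read as 4EHP-ADAR and the cap-binding mutant from the names alone, so every direction between the fusions rests on that reading. The table gave the A and G reads at 91502 sites, of which 317 lay in the members: 108 in *br*, 53 in *Eip75B*, 50 in *Eip74EF*, 40 in *EcR*, 29 in *Hr39*, 18 in *usp*, 11 in *Eip78C*, 7 in *Eip71CD*, 1 in *ftz-f1* and 0 in *Eip93F*. By the annotation 115 lay in coding sequence, 120 in 3′ UTRs, 65 in 5′ UTRs and 17 in introns, and the 3′ UTR held 72 of the 108 sites of *br*. At the 257 member sites with at least 20 reads in every library, no site passed the threshold in the quasi-binomial model (0.093% of all 69874 tested sites did, 65 higher in 4EHP-ADAR and 0 lower). At an unadjusted p of 0.05, 1 member site passed, a coding site of *Eip75B*, and Fisher's exact test on pooled reads called that same site. Limma on the empirical logit called 0, and 1, again that site, with the column number as a block.

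Nearly all member sites were at the edge of detection. Of the 257, 161 had a single G read over the 4EHP-ADAR libraries, 237 had 1 or 2, and 234 (91.1%) had none in the mutant, as did 91.8% of the whole table. No deposited site was without a G read in 4EHP-ADAR, so how sites were kept fixes much of the direction. The median G share of the members was 0.439% in 4EHP-ADAR and 0% in the mutant, beside 0.355% and 0% over all tested sites. At the depth of the member sites, a median of 63 to 126 reads per library, 0 reads in the mutant allow a share of 0.250% to 3.85% depending on the site. A mean share of at least 5% in either group was reached at 2 member sites, beside 3.01% of all tested sites, and groups did not overlap at 2 member sites, beside 1.43%.

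Among the tested member sites, the coding site of *Eip75B* at 3L:17954496 (dm6, minus strand) was the exception. In 4EHP-ADAR G made up 195 of 251, 153 of 165 and 236 of 249 reads, or 77.7%, 92.7% and 94.8%. In the mutant it made up 152 of 212, 107 of 208 and 88 of 142 reads, or 71.7%, 51.4% and 62.0%. Each 4EHP-ADAR library was above each mutant library, and the mean shares were 88.4% ± 9.33 and 61.7% ± 10.1 (SD, n = 3), a difference of 26.7 percentage points. The quasi-binomial model, fitted across all sites, gave p = 0.00320 and an adjusted p of 0.521, while pooling the reads for Fisher's exact test, which leaves out the spread between libraries, gave an adjusted p of 7.25e-24. The G share was high in the mutant too, and no library without ADAR is in the table.

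Other sites follow, those of *br* and *Hr39* picked because of their values, which had been seen. A coding site of *br* (X:1647819) had 9 of 44, 1 of 42 and 3 of 58 G reads in 4EHP-ADAR and 6 of 78, 0 of 43 and 0 of 45 in the mutant, so the groups overlapped. A 5′ UTR site of *usp* (X:2042194), also listed under another gene, had 1 of 63, 2 of 46 and 1 of 51 G reads in 4EHP-ADAR and 0 of 41, 52 and 47 in the mutant, with an adjusted p of 0.521. An intronic site of *Hr39* (2L:21256933) had G in 18 of 20, 25 of 26 and 34 of 34 reads in 4EHP-ADAR and in 4 of 10, 11 of 12 and 9 of 9 in the mutant, too few reads to be tested. The sites with the smallest p in *EcR*, *br*, *Eip74EF*, *Eip78C*, *Eip71CD* and *Hr39* rested on 1 to 4 G reads each. For *Eip71CD*, the member with the largest RNA change, the 7 sites had a median share of 0.919% in 4EHP-ADAR and 0% in the mutant.

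**Figure D5:**
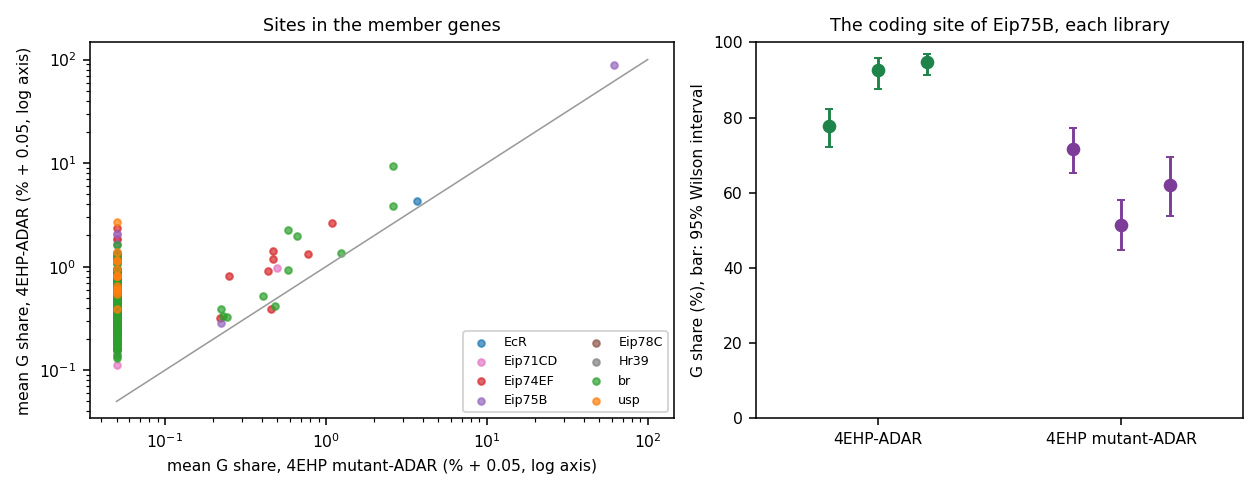
Left, mean G share (% + 0.05, log axes) of the tested member sites in 4EHP-ADAR against the cap-binding mutant; all but 1 lie below 10% on both axes. Right, G share of the *Eip75B* coding site in each library with its 95% Wilson interval, which covers counting error only; the 4EHP-ADAR libraries lie at 77.7% to 94.8% and the mutant libraries at 51.4% to 71.7%.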

How the data were processed

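For RNA-seq the authors deposited CPM values per gene. The submitters' processing notes name STAR, featureCounts, DESeq2 and dm6; versions and strand setting are not given in the sources used here. For TRIBE the authors used FLEXBAR, HISAT2 and JACUSA and deposited read counts of A, C, G and T per site and library, with C and T all 0. The authors' site score was not used, so sites were named by the smallest p. The coding site of *br* and the intronic site of *Hr39* were instead added because of their values, which had been seen.

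Within each table, CPM was divided by median-of-ratios factors. Transcripts averaging 5 CPM or more were tested with limma 3.58.1 (R 4.3.3, eBayes trend, Benjamini-Hochberg threshold 0.05) on log2(scaled CPM + 1), a scale that understates changes of low transcripts. Reads recovered from the CPM steps (100% of the low values were whole within 0.1) went to edgeR 4.0.16 and DESeq2 1.42.0 (baseMean above 350). The G share was modelled as quasi-binomial, with dispersion moderated by squeezeVar and floored at 1; its prior came from sites with an expected variance of 5 or more, chosen after values were seen. A count of 0 allows up to 3 reads. TRIBE positions count from 0, and 1 was added: codon bases of the strands then differ by at most 1.10 percentage points, against 24.2 as listed. Gene parts are from BDGP6.54 (dm6). Scripts were tested on simulated data. Other settings were CPM as deposited, pseudocounts of 0.1 and 5, other filters and read minimums, array weights, a replicate block and leaving out each library.

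Named are all members, list genes past the threshold and, for 5 members, the 3 transcripts with the highest correlation. The members and lists were chosen with earlier results of these data known. Per the methods, an RNA-seq replicate was a pool of fat bodies from several larvae, so p-values measure the spread between such pools. TRIBE columns were matched to groups, not to single samples, from their names.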

Additional observations from a re-analysis of the deposited data

How the results depend on the processing

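For *NELF-E* RNAi the count of members called was 2 without *lacZ* RNAi replicate 1 (with *usp*), beside 1454 higher and 1978 lower of 8322 transcripts. With array weights it was 5, beside 2985 higher and 3498 lower of 8371. In every other setting it was 1, and leaving out single libraries gave 1 to 2. For *4EHP* RNAi the count was 1 with DESeq2, beside 202 higher and 177 lower of 8480 transcripts. With array weights, whose fit gave a convergence warning, it was 7, beside 1561 higher and 1980 lower of 8584. Without control replicate 3 it was 1, beside 458 higher and 119 lower of 8723. In every other setting it was 0, a range of 0 to 1 when single libraries were left out. For member sites in TRIBE the count was 1 with Fisher's exact test on pooled reads, beside 749 higher and 1 lower of 69874 sites. It was also 1 with limma on the logit with a replicate block, beside 510 higher, and 0 otherwise. For the difference of the comparisons it was 0 throughout.

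Signs turned with the scaling or a single library, and the cause was not tested. With CPM as deposited, *usp* in *4EHP* RNAi was at 0.0047, and in *NELF-E* RNAi *br*, *Eip74EF*, *Eip75B* and *Hr39* were at 0.52, 0.21, 0.42 and 0.42. With array weights, *EcR*, *br*, *Eip74EF*, *Eip75B* and *Hr39* in *NELF-E* RNAi were at -0.36, 0.61, 0.21, 0.27 and 0.47. Leaving out single libraries moved *EcR* from -1.28 to 0.14 in *4EHP* RNAi (positive without control replicate 3), and in *NELF-E* RNAi *EcR* from -0.32 to 0.59 (negative without *lacZ* RNAi replicate 1), *br* from -0.60 to 0.48, *Eip74EF* from -0.89 to 0.18, *Eip75B* from -0.62 to 0.26 and *Hr39* from -0.67 to 0.18 (positive without *lacZ* RNAi replicate 2). It moved the difference of the comparisons from -0.24 to 0.65 for *usp*, -1.17 to 0.033 for *Eip78C* and -1.55 to 0.17 for *Eip71CD*.

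Over all transcripts, calls for *4EHP* RNAi numbered 0 in the main test and 71 higher and 22 lower as deposited, 5 and 0 with a pseudocount of 5, 458 and 119 without control replicate 3, 202 and 177 with DESeq2, and 1561 and 1980 with array weights. For *NELF-E* RNAi they were 167 and 205 in the main test, 337 and 173 as deposited, 198 and 94 without a filter, 1454 and 1978 without *lacZ* RNAi replicate 1, 50 to 176 and 47 to 147 without another library, 315 and 907 with DESeq2, and 2985 and 3498 with array weights. Over all sites, 65 were called in the main test, 749 higher and 1 lower with Fisher's exact test, 489 with limma on the logit, 510 with limma on the logit and a block, and 0 to 37 when a library was left out.

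Whether the replicate numbers pair the samples was not settled. Deviations of same-numbered libraries correlated at 0.119, 0.011 and -0.167 in one table and 0.303, 0.185 and -0.214 in the other. Those of differently numbered libraries correlated between -0.277 and 0.166 and between -0.387 and 0.415. With a replicate block, calls numbered 0 for *4EHP* RNAi and 313 and 709 for *NELF-E* RNAi, where *Eip71CD* had an adjusted p of 2.11e-06 from limma, against 0.479 in *4EHP* RNAi; it changed no member's call. For TRIBE, column numbers were matched to no sample, and same-numbered columns correlated at 0.0679, 0.0129 and 0.0443. Blocking on them, chosen after seeing the data, gave the *Eip75B* coding site an adjusted p of 0.0381 from limma.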
